A study of Mus musculus with 6 samples.

Results

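The gene set described here comprised 30 genes of cholesterol synthesis and efflux, taken by symbol from a list of pathway genes chosen by role, out of 53278 genes in the deposited table. The list was chosen with earlier results of these data known. Counts of its members set beside shares of all genes are therefore descriptive, and the list was given no p-value. It held 18 enzymes that build cholesterol from acetyl units, 5 genes of the SREBP control of that pathway, 2 genes of sterol transport and storage, and 5 genes of the LXR receptors and their targets, including 2 efflux pumps. All 30 symbols were found in the table, and 29 passed the filter on low counts. The gene that was removed was Nr1h3, with 1 to 14 counts per library.

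Bulk RNA-seq was carried out on group 2 innate lymphoid cells (ILC2s) sorted from the visceral adipose tissue of C57BL/6 mice aged 8 weeks that had received 3 intraperitoneal injections of 1 µg recombinant mouse IL-33. The sort took CD45+ ST2+ CD117+ cells lacking lineage markers of T cells (CD3ε, TCRγδ), B cells (CD45R), myeloid and granulocytic cells (CD11b, CD11c, Gr-1, FcεRI) and erythroid cells (Ter119). All 6 samples were cultured for 48 h by the labels, though the study's text also gives a shorter time, with IL-2 at 10 ng/mL and IL-7 at 10 ng/mL, with either DTA-1, an agonist antibody to the receptor GITR, at 5 µg/mL (3 libraries) or an isotype control antibody whose dose the labels do not give (3 libraries), so the cells of both groups were IL-33-elicited and cytokine-fed. Sample titles name the control group Isotype, whereas the deposited columns of the same libraries are headed PBS-GITR. The comparison asked what engagement of GITR does to the transcripts of these cells. The labels do not say whether the 3 libraries of a group came from separate animals or cultures, so p-values measure the spread between these libraries, which may be technical.

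Cholesterol is made in the endoplasmic reticulum by a long chain of enzymes: the mevalonate pathway assembles isoprenoid units, squalene is made from them and closed into lanosterol, and lanosterol is trimmed to cholesterol. The chain is controlled as a unit. When membrane sterol is low, SCAP carries the SREBP transcription factors to the Golgi for cleavage and the freed factor switches on the enzymes, whereas sterol-bound INSIG proteins hold SCAP back. When sterol is abundant, oxysterols activate the LXR receptors, which switch on the efflux pumps ABCA1 and ABCG1 and the ubiquitin ligase MYLIP, which removes lipoprotein receptors from the cell surface. Lymphocytes are known to raise sterol synthesis when they are activated and grow.

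The libraries held 30569351 to 35131329 counts, and a count of 0 allows up to 0.0848 to 0.0970 normalised counts (counts scaled to a common library size, as CPM after TMM scaling) in a library, counting error only. The summed level of 10 ILC2 markers was 11269 to 12146 normalised counts with the isotype control and 12305 to 16613 with DTA-1. Il5 was the largest part of that sum and made most of its difference. Summed markers of other cells of the tissue were far lower than those of ILC2s: 7 macrophage genes summed to 6.44 to 12.2 normalised counts in the isotype group and 8.67 to 11.9 in the DTA-1 group, mostly Cd68, with C1qb at 0 in every library, 6 fibroblast genes to 2.20 to 8.39 and 0 to 3.98, and 5 adipocyte genes to 0 to 0.454 and 0 to 0.063, with Lep and Cidec at 0. The 5 T cell genes summed to 40.9 to 54.1 and 47.6 to 51.3, mostly Cd3g. The 7 cycling genes summed to 1598 to 1671 and 1623 to 1667 normalised counts. The library labelled DTA-1 replicate 1 lay near the isotype control libraries for many genes, so the main counts and the fold changes that moved most are given with and without it.

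For 12 of the 18 synthesis enzymes, DTA-1 replicates 2 and 3 exceeded every isotype control library, against 15.5% of all genes. All 3 DTA-1 libraries did so for Mvd and Cyp51 among these enzymes, against 5.26% of all genes. DTA-1 replicate 1 was set aside in the first count after its values were seen. That count and like counts below are therefore descriptive. Summed over the 18 enzymes, the level was 1607, 1771 and 1684 normalised counts in isotype control replicates 1 to 3 and 1698, 2247 and 2174 in DTA-1 replicates 1 to 3. The group means were 1687 ± 82.1 (SD, n = 3) and 2040 ± 298.5 (SD, n = 3). DTA-1 replicates 2 and 3 stood above every isotype control library, whereas DTA-1 replicate 1 stood among them. In bulk libraries such as these, fewer cells of a type and less RNA per cell cannot be told apart.

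With all 6 libraries, 0 of the 29 genes tested were called, at an adjusted p below 0.05 and at least 1.5-fold in the quasi-likelihood test of edgeR (p adjusted over all genes tested by the Benjamini-Hochberg procedure), and 0 of all 14361 genes tested were called (0%). The smallest adjusted p was 0.627 among the members and 0.452 among all genes. DESeq2 and limma-trend also called 0 members, though DESeq2 called 20 of all genes. At an unadjusted p below 0.05, 7 members were past the threshold and all 7 were higher with DTA-1: Hmgcs1, Mvd, Idi1, Fdps, Fdft1, Sqle and Cyp51, every one a synthesis enzyme. Over all genes tested, 4.11% were past that threshold in the higher direction and 3.11% in the lower. A log2 fold change above 0 was found for 23 of the 29 members and for 17 of the 18 enzymes, against 48.1% of all genes. With scaling by total counts these counts were 19 of 29 and 14 of 18, against 5674 of all 14361 genes. The median log2 fold change was 0.15 over the members, 0.22 over the enzymes and -0.01 over all genes.

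**Figure D1:**
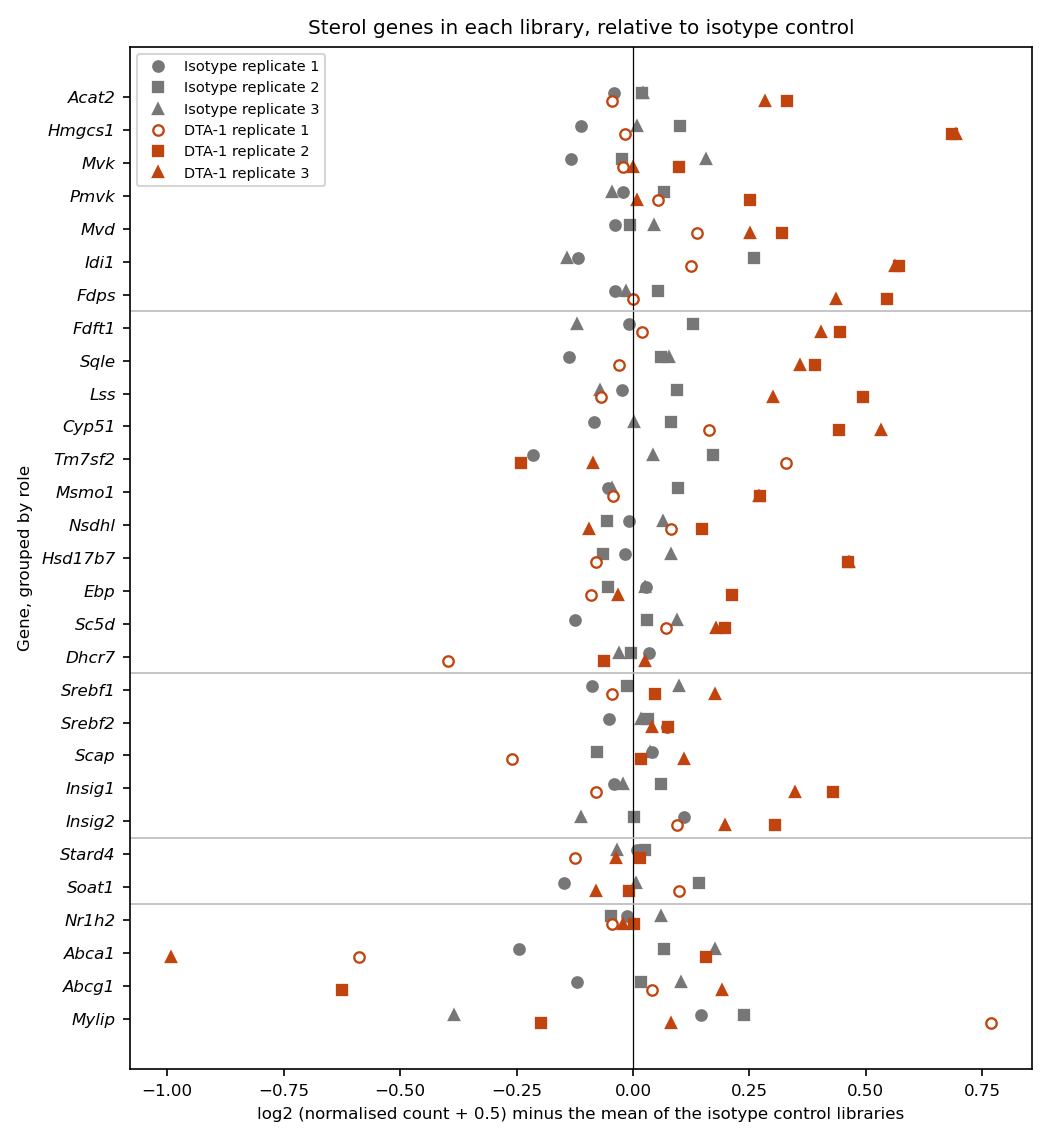
Level of each of the 29 tested genes in each library, as the difference in log2(normalised count + 0.5) from the mean of the 3 isotype control libraries, ordered by role. Grey marks are isotype control libraries, orange marks DTA-1 libraries, with the open mark for DTA-1 replicate 1. For 12 of the 18 synthesis enzymes DTA-1 replicates 2 and 3 lie above all 3 isotype control libraries, against 15.5% of all genes tested. DTA-1 replicate 1 was set aside in that count after its values were seen.

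The shift was counted by library as well. DTA-1 replicates 2 and 3 both exceeded every isotype control library for 15 of the 29 members, namely 12 synthesis enzymes with Insig1, Insig2 and Srebf2, against 15.5% of all genes. Both lay below every isotype control library for 0 members, against 16.1% of all genes. DTA-1 replicate 1 exceeded every isotype control library for 6 members, against 22.8% of all genes. Among the 18 enzymes it lay within the isotype range for 10, above it for 4 and below it for 4. As a median over the 18 enzymes, the difference in log2(normalised count + 0.5) from the isotype mean was -0.01, 0.33 and 0.28 in DTA-1 replicates 1 to 3. In the isotype control libraries it was -0.04, 0.06 and 0.02. All 3 DTA-1 libraries exceeded all 3 isotype control libraries for 3 members, Mvd, Cyp51 and Srebf2, against 5.26% of all genes, and lay below them for 0 members, against 6.03%.

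**Figure D2:**
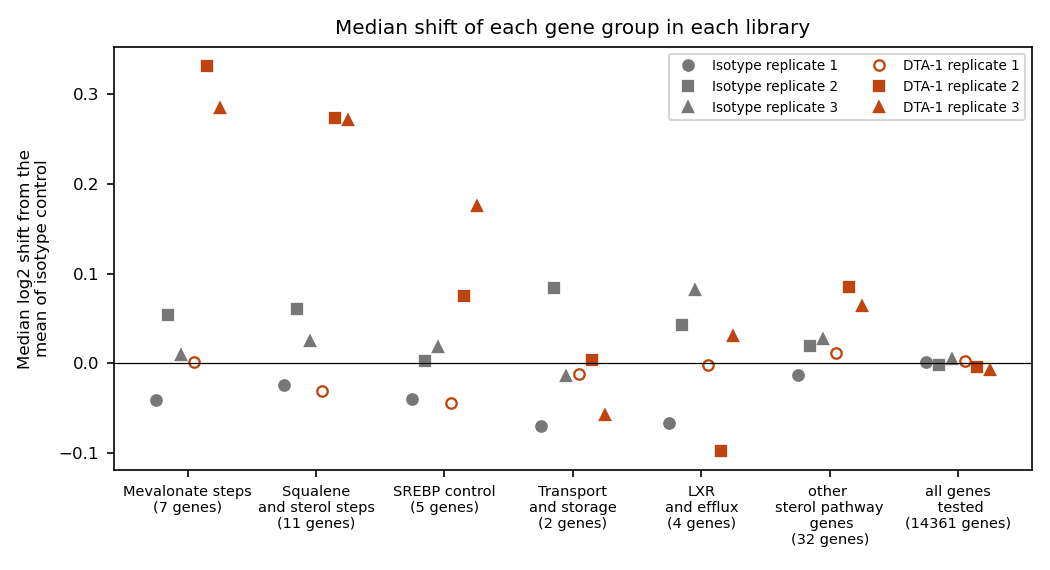
Median difference in log2(normalised count + 0.5) from the isotype control mean over the genes of each role, by library, with all genes tested for reference. In DTA-1 replicates 2 and 3 the mevalonate genes lie at 0.33 and 0.28 and the squalene and sterol genes at 0.27 and 0.27, against 0.00 and -0.03 in DTA-1 replicate 1 (open mark), while the median of all genes stays within 0.01 of 0 in every library.

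Without DTA-1 replicate 1 (given here because that library was seen to stand apart), all 30 members were tested among 14911 genes. Hmgcs1 was then called, as were 0.744% of all genes tested. Because the library was picked after its values were seen, smaller p-values without it are to be expected from the choice. Those p-values, here and for single genes below, are descriptive and give no support of their own. At an adjusted p below 0.05 with no limit on fold, 8 members were higher with DTA-1 (Hmgcs1, Idi1, Fdps, Fdft1, Sqle, Lss, Cyp51 and Insig1), against 1.35% of all genes, and 0 were lower, against 0.342%. At an unadjusted p below 0.05, 14 members were higher, against 7.5% of all genes, and 0 were lower, against 6.53%. The median log2 fold change was 0.12 over the members, 0.30 over the enzymes and -0.02 over all genes. DESeq2 and limma-trend without this library put 12 of 28 and 8 of 30 members at an adjusted p below 0.05 and higher, against 4.15% and 1.46% of all genes. Over all settings tried, the adjusted p of Hmgcs1 ran from 1.69e-16 to 0.999, and the other 7 of these 8 also reached 0.999 in at least 1 setting. Leaving out DTA-1 replicate 2 in its place lowered the members higher at an unadjusted p below 0.05 to 3 (Hmgcs1, Idi1 and Cyp51), against 2.24% of all genes, with 1 lower (Abca1), against 2.15%. Leaving out DTA-1 replicate 3 lowered them to 5, against 2.04%. Without isotype control replicates 1, 2 and 3 in turn they were 6, 6 and 7, against 3.02%, 4.51% and 3.09%.

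The gene with the largest difference among the enzymes was Hmgcs1 (chr13:119690379-119708260, + strand, mm10), the cytosolic synthase that makes HMG-CoA, the precursor of mevalonate. Its promoter is shown because it held the only match to the sterol element searched for. The 250 bases below are from RefSeq (GRCm38.p6), chr13:119690101-119690350, + strand, written 5′ to 3′, with the match to the sterol regulatory element letters TCACNCCAC in capitals.
Hmgcs1: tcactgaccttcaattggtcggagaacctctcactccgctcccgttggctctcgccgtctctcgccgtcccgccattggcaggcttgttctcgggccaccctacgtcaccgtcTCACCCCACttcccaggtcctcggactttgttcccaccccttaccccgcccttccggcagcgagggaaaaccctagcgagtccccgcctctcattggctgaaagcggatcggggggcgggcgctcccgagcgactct

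Promoters of 250 bases before to 50 after the start were given for 25 of the 30 members, with none matched for Fdps, Fdft1, Sqle, Stard4 and Abcg1. On both strands TCACNCCAC occurred in 1 of the 25, against 1.44% of 27025 genes. The letters CCAAT, the box bound by NF-Y, were added to the search after seeing the data and occurred on either strand in 20 of the 25, against 41.1% of all genes. The 20 held genes higher in DTA-1 replicates 2 and 3, such as Hmgcs1 and Cyp51, and genes near 0, such as Mvk, Ebp and Soat1. Acat2 was not among them. The 27025 genes were not limited to those expressed in these cells. In the Hmgcs1 bases shown there were 3 CCAAT boxes, the nearest 34 bases from the sterol element match. The LXR element, a direct repeat of AGGTCA with a spacer of 4 bases, occurred in 0 of the 25 and in 0.0148% of all genes. A match of letters is a description of the window and not a measured binding site.

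In the mevalonate pathway all 7 genes had a log2 fold change above 0, against 48.1% of all genes. With scaling by total counts 6 of the 7 were above 0, against 5674 of all 14361 genes. The median was 0.24 with all 6 libraries and 0.31 without DTA-1 replicate 1. Hmgcs1 measured 165, 191 and 179 normalised counts in isotype control replicates 1 to 3 and 176, 286 and 288 in DTA-1 replicates 1 to 3. DTA-1 replicates 2 and 3 were above every isotype control library and DTA-1 replicate 1 was within their range. The log2 fold change was 0.49 (SE 0.15, 95% interval 0.15 to 0.83, edgeR adjusted p = 0.627) with all 6 libraries. Without DTA-1 replicate 1 it was 0.69 (SE 0.07, 0.53 to 0.85, edgeR adjusted p = 0.00129), or 1.61-fold.

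Idi1 (chr13:8885501-8892451), which isomerises the first isoprenoid unit, measured 109, 142 and 107 normalised counts with the isotype control and 129, 176 and 175 with DTA-1. The log2 fold change was 0.42 (SE 0.13, edgeR adjusted p = 0.627), and 0.56 (SE 0.11, edgeR adjusted p = 0.0449) without DTA-1 replicate 1, whose value lay between those of the isotype control libraries. Fdps (chr3:89093588-89101959), which joins the units into farnesyl diphosphate, measured 188, 201 and 192 normalised counts and 194, 283 and 262. Its log2 fold change was 0.35 (SE 0.12, edgeR adjusted p = 0.627), and 0.49 (SE 0.06, edgeR adjusted p = 0.00539) without DTA-1 replicate 1. As with Idi1, DTA-1 replicates 2 and 3 were above all 3 isotype control libraries.

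Mvd (chr8:122433601-122443422), the decarboxylase that makes the first isoprenoid unit, measured 54.5, 55.8 and 57.9 normalised counts with the isotype control and 61.7, 70.1 and 66.8 with DTA-1, so the groups did not overlap. Its log2 fold change was 0.24 (SE 0.08, edgeR adjusted p = 0.632), and 0.29 (SE 0.08, edgeR adjusted p = 0.144) without DTA-1 replicate 1. Acat2 (chr17:12942890-12960747), the thiolase that opens the pathway by joining acetyl units, measured 49.7, 51.8 and 51.8 normalised counts and 49.5, 64.4 and 62.3. Its log2 fold change was 0.20, and 0.31 without DTA-1 replicate 1. DTA-1 replicate 1 was the lowest of the 6 libraries for Acat2, and the other DTA-1 libraries were the highest. The kinases that act on mevalonate before Mvd showed smaller differences. Mvk had a log2 fold change of 0.02 (95% interval -0.23 to 0.28) and Pmvk one of 0.11 (SE 0.12), and the isotype and DTA-1 ranges overlapped for both.

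From squalene to cholesterol, 10 of the 11 enzymes had a log2 fold change above 0, against 48.1% of all genes. With scaling by total counts 8 of the 11 were above 0, against 5674 of all 14361 genes. The median was 0.17 with all 6 libraries, and 0.27 without DTA-1 replicate 1. Cyp51 (chr5:4081145-4104746), the demethylase that first trims lanosterol, measured 150, 168 and 159 normalised counts with the isotype control and 178, 216 and 230 with DTA-1. It was the member with the smallest unadjusted p, its groups did not overlap, and DTA-1 replicate 1 lay above all 3 isotype control libraries. The log2 fold change was 0.39 (SE 0.09, 95% interval 0.18 to 0.59, edgeR adjusted p = 0.627), and 0.49 (SE 0.07, edgeR adjusted p = 0.00891) without DTA-1 replicate 1.

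Fdft1 (chr14:63145150-63179578), squalene synthase, measured 82.8, 91.1 and 76.7 normalised counts with the isotype control and 84.5, 114 and 110 with DTA-1. Sqle (chr15:59315077-59331192), the epoxidase that oxidises squalene and is a second control point of the pathway, measured 164, 188 and 190 and then 176, 236 and 231. Lss (chr10:76531588-76557138), which closes the rings to make lanosterol, measured 141, 153 and 136 and then 136, 202 and 176. In all 3 genes DTA-1 replicates 2 and 3 exceeded the isotype control libraries and DTA-1 replicate 1 lay among or at the edge of them. The log2 fold changes were 0.30, 0.25 and 0.26 with all 6 libraries (edgeR adjusted p = 0.649, 0.673 and 0.692). Without DTA-1 replicate 1 they were 0.42, 0.37 and 0.40 (edgeR adjusted p = 0.0452, 0.0454 and 0.0429).

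Of the enzymes that remodel the sterol rings and side groups, Hsd17b7, a ketosteroid reductase of the demethylation complex, measured 25.9, 25.0 and 27.8 normalised counts with the isotype control and 24.8, 36.3 and 36.3 with DTA-1. Its log2 fold change was 0.31 (SE 0.15, edgeR adjusted p = 0.702), and 0.47 (SE 0.10, edgeR adjusted p = 0.0643) without DTA-1 replicate 1. Msmo1, the oxidase that starts removal of the paired methyl groups, measured 123, 137 and 124 and then 124, 154 and 154, a log2 fold change of 0.17, and 0.27 without DTA-1 replicate 1. Both genes followed the pattern of the earlier enzymes, with DTA-1 replicate 1 within or below the isotype range. Sc5d, the desaturase that acts before the last reduction, measured 130, 145 and 151 and then 149, 163 and 160, with DTA-1 replicate 1 inside the isotype range and a log2 fold change of 0.15 (SE 0.07, edgeR adjusted p = 0.725).

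The remaining 4 enzymes of the sterol steps showed smaller or opposite differences, and whether they differed from the other enzymes was not tested. Ebp, the sterol isomerase, had a log2 fold change of 0.04 (95% interval -0.16 to 0.23), Nsdhl, a dehydrogenase of the demethylation complex, one of 0.05, and Tm7sf2, a sterol reductase, one of 0.01 (SE 0.20), which was -0.18 (SE 0.19) without DTA-1 replicate 1. Dhcr7 (chr7:143823145-143848410), the reductase of the last step, was the enzyme with a log2 fold change below 0. It measured 44.8, 43.6 and 42.8 normalised counts with the isotype control and 33.1, 41.9 and 44.5 with DTA-1, and its log2 fold change was -0.13 (95% interval -0.39 to 0.12, edgeR adjusted p = 0.835), and -0.02 without DTA-1 replicate 1. The low value was that of DTA-1 replicate 1, while the other DTA-1 libraries were near the isotype level.

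**Figure D3:**
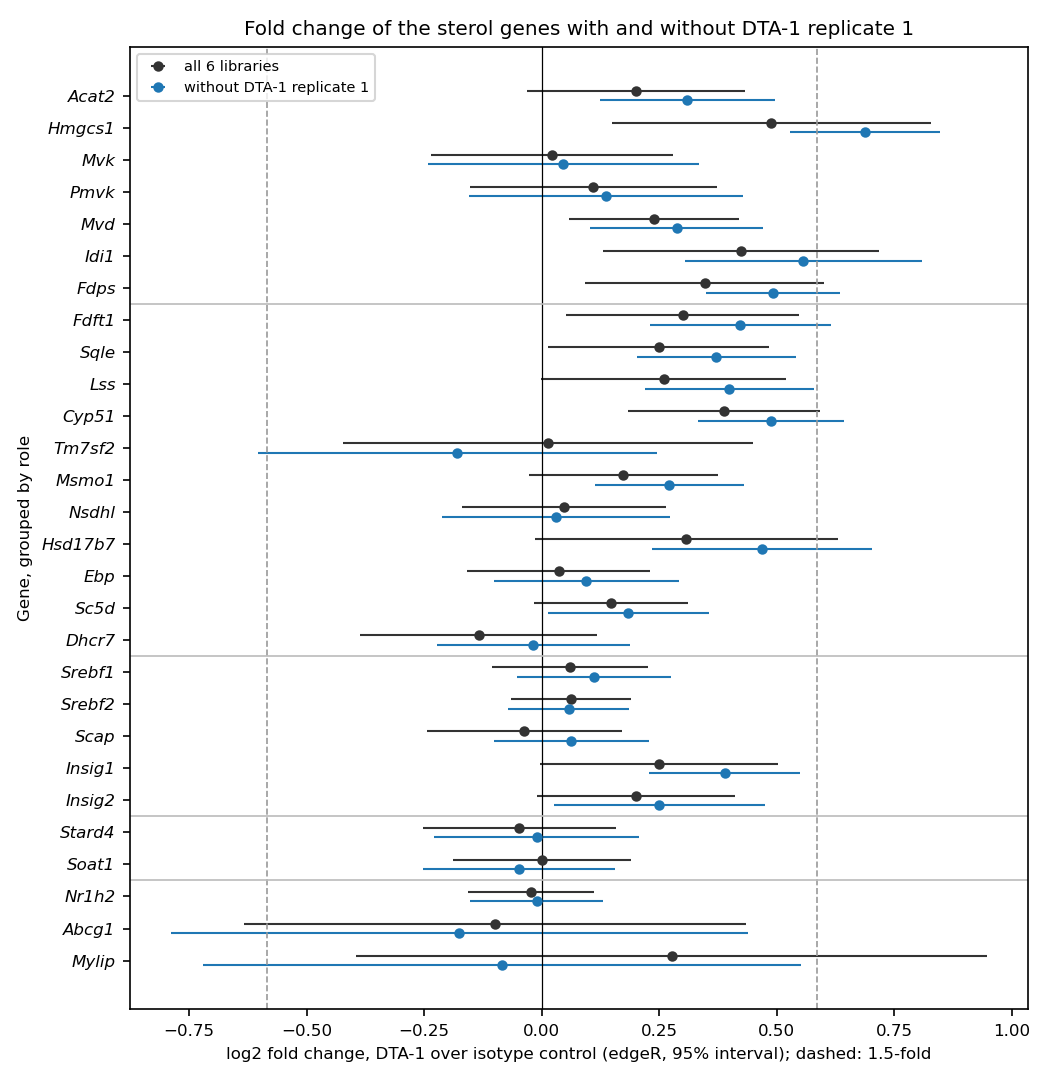
Log2 fold change of each gene, DTA-1 against isotype control, with its 95% interval from edgeR, for all 6 libraries and without DTA-1 replicate 1. Abca1, whose interval with all 6 libraries ran from -2.99 to 1.07, and Nr1h3 are left out. Hmgcs1 moves from 0.49 to 0.69 and Dhcr7 lies at -0.13 and -0.02, and dashed lines mark a 1.5-fold difference.

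Of the 5 genes that control the pathway, the INSIG genes were higher in DTA-1 replicates 2 and 3. Insig1 (chr5:28071363-28078662), itself a target of SREBP, measured 90.5, 97.1 and 91.7 normalised counts with the isotype control and 88.0, 126 and 119 with DTA-1. Its log2 fold change was 0.25 (SE 0.11, edgeR adjusted p = 0.692), and 0.39 (SE 0.07, edgeR adjusted p = 0.0287) without DTA-1 replicate 1, which was the lowest of the 6 libraries. Insig2 (chr1:121304353-121332589) measured 48.8, 45.3 and 41.8 and then 48.3, 55.9 and 51.9, with a log2 fold change of 0.20 (SE 0.10, edgeR adjusted p = 0.702). DTA-1 replicate 1 lay within the isotype range for Insig2.

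The transcripts of the SREBP factors differed less. Srebf2 (chr15:82147266-82205376), which encodes the factor that mainly drives cholesterol genes, measured 270, 286 and 283 normalised counts with the isotype control and 294, 295 and 288 with DTA-1. Its groups did not overlap, but the log2 fold change was 0.06 (95% interval -0.06 to 0.19, edgeR adjusted p = 0.85), and 0.06 (-0.07 to 0.19, edgeR adjusted p = 0.734) without DTA-1 replicate 1. Srebf1, whose products drive mainly fatty acid genes, had a log2 fold change of 0.06 (95% interval -0.11 to 0.23, edgeR adjusted p = 0.9). Scap, the escort, had one of -0.04 (95% interval -0.24 to 0.17), and 0.06 without DTA-1 replicate 1, and its isotype and DTA-1 ranges overlapped.

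Stard4, a carrier of sterol between membranes, and Soat1, which esterifies cholesterol for storage, showed differences near 0, with log2 fold changes of -0.05 (95% interval -0.25 to 0.16) and 0.00 (-0.19 to 0.19). Of the receptors, Nr1h2, encoding LXRβ, measured 181, 177 and 190 normalised counts with the isotype control and 177, 183 and 180 with DTA-1, a log2 fold change of -0.02 (95% interval -0.16 to 0.11). The other receptor gene, Nr1h3 (LXRα), had 2, 13 and 14 counts with the isotype control and 9, 1 and 4 counts with DTA-1. Per kilobase of transcript, the isotype level was 91.4 normalised counts for Nr1h2 and 0.140 for Nr1h3, so nearly all LXR receptor transcript in these libraries was that of Nr1h2.

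The efflux genes were low in both groups. Abca1 (chr4:53030787-53159895) had 12, 19 and 22 counts with the isotype control and 5, 19 and 0 counts with DTA-1, which came to 0.339, 0.542 and 0.624 normalised counts and 0.162, 0.609 and 0. The count of 0 allows up to 3 counts in that library. The groups overlapped, and the log2 fold change of -0.96 had a wide interval (-2.99 to 1.07, edgeR adjusted p = 0.859). Without DTA-1 replicate 1 it was -0.72 (95% interval -3.25 to 1.82). Without DTA-1 replicate 2 it was -2.59 (edgeR adjusted p = 0.997), and without DTA-1 replicate 3 it was -0.38, so its size rested on single libraries. Abcg1, the partner pump that loads mature HDL, measured 6.02, 6.67 and 7.11 and then 6.79, 4.10 and 7.59 normalised counts, a log2 fold change of -0.10 (SE 0.24). Mylip measured 4.97, 5.33 and 3.29 and then 7.92, 3.81 and 4.74, a log2 fold change of 0.28 (SE 0.30), and -0.08 without DTA-1 replicate 1. Over the 4 tested LXR and efflux genes the median log2 fold change was -0.06, and 0 were past an unadjusted p of 0.05.

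**Figure D4:**
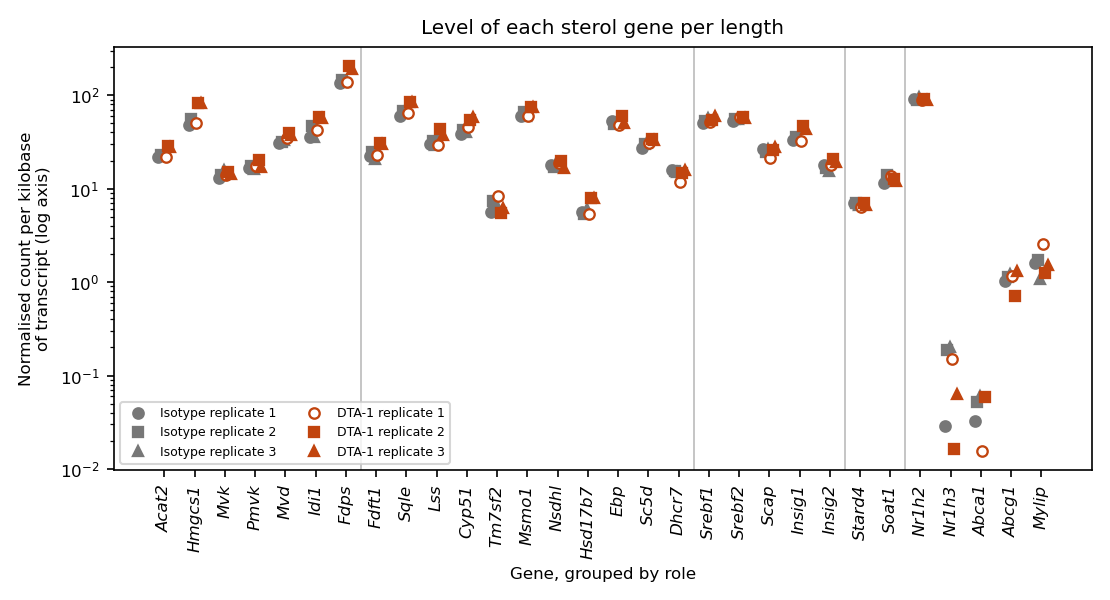
Normalised counts per kilobase of transcript (log axis) for each gene in each library, grouped by role, with isotype control libraries in grey and DTA-1 libraries in orange (open for DTA-1 replicate 1). Fdps is highest at 140.0 in the isotype control group, and Nr1h3 (0.140) and Abca1 (0.0489) are lowest, with Abca1 in DTA-1 replicate 3 left out because its count was 0.

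Compared per kilobase of transcript, the isotype means spanned from 140.0 normalised counts for Fdps to 0.0489 for Abca1. Below Fdps came Nr1h2 at 91.4, Sqle at 65.5, Msmo1 at 62.5, Srebf2 at 55.1, Srebf1 at 53.2, Ebp at 51.6 and Hmgcs1 at 51.5 normalised counts per kilobase. Neighbours in that order such as Ebp and Hmgcs1 lay closer than the spread between libraries. The lowest synthesis enzyme was Hsd17b7 at 5.69, while the LXR targets Mylip and Abcg1 stood at 1.48 and 1.13.

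Another 36 genes of sterol and isoprenoid biology, from a list fixed for this comparison with earlier results known, were set beside the members, and 32 were tested. With edgeR 0 of the 32 were called, and 1 was higher and 1 lower at an unadjusted p below 0.05, against 4.11% and 3.11% of all genes. A log2 fold change above 0 was found for 20, against 48.1% of all genes. The median was 0.03, against -0.01 over all genes. With scaling by total counts 14 were above 0, against 5674 of all 14361 genes. The median was then -0.01, against -0.04 over all genes. DTA-1 replicates 2 and 3 exceeded every isotype control library for 11 of the 32, against 15.5% of all genes, and lay below them for 5, against 16.1%. Without DTA-1 replicate 1, 1 of the list was higher at an edgeR adjusted p below 0.05 and 0 were lower, against 1.35% and 0.342% of all genes.

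Of the 10 ILC2 markers, 4 stood above every isotype control library in DTA-1 replicates 2 and 3, against 15.5% of all genes. These were Il5, Il13, Areg and Il2ra. Another 3, Gata3, Il1rl1 and Kit, lay below every isotype control library there, against 16.1% of all genes. Il5, the type 2 cytokine gene, measured 5063, 5418 and 5493 normalised counts with the isotype control and 5627, 9695 and 8899 with DTA-1. Gata3, the lineage's defining transcription factor, measured 1716, 1688 and 1688 and then 1678, 1525 and 1607, and Il1rl1, the gene of ST2, 1096, 1277 and 1161 and then 1286, 1022 and 1022. The part of these marker values in the enzyme result was not tested. The cycling genes were near the same summed level in all 6 libraries.

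Some counts may hold reads of other genes. Fdft1 overlaps Ctsb on the opposite strand, which had 15555 mean counts to 3084 for Fdft1 and a log2 fold change of -0.07. Mvd overlaps Gm20388 on the opposite strand (2107 and 2026 mean counts, log2 fold change of Gm20388 -0.18), and Tm7sf2 overlaps Vps51 on its own strand (2321 and 332.5 mean counts). Cyp51 overlaps Akap9 on the opposite strand (2155 mean counts to 6066 for Cyp51, log2 fold change of Akap9 -0.0362), and Srebf1 overlaps Rai1 there (1313 to 7769, log2 fold change of Rai1 -0.33). Whether counting used strand is not given in the sources used here, so reads of such pairs cannot be told apart. Acat2 is uncertain because its transcript matched that of Acat3 at 97.7% over 1477 bases and that of Tcp1 at 98.7% over 445 bases, and their log2 fold changes were 0.20 and 0.19. Tcp1 had 12379 mean counts to 1822 for Acat2. Idi1 matched the pseudogene Gm13502 at 100% over 684 bases, and Fdps matched Gm3571 at 98.9% over 1062 bases, but the copies held 6.05% and 1.56% of the counts of the member.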

How the data were processed

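RNA-seq was carried out on 6 libraries, 3 per group, and per the labels libraries were made from 10 ng of RNA. The authors aligned the reads, analysed them with Partek software and deposited 1 table of estimated counts per gene for all libraries, not normalized and partly not whole. For 16 of the 30 members some value was not whole (tolerance 0.05). The submitters' processing notes name bcl2fastq 2.17.1.14, STAR 2.5.3a, Partek and mm10. The counting method's release of the annotation and its use of strand are not given in the sources used here. The end coordinate in the table was 1 past the last base and was lowered by 1, after which 28 of the 30 members had the coordinates of GENCODE mouse release 21.

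Deposited counts were rounded to whole numbers. The filterByExpr filter by group, TMM scaling and the robust quasi-likelihood test of edgeR 4.0.16 in R 4.3.3 were used with group as the term, since the study's methods name no model, with Benjamini-Hochberg adjustment over all genes tested. A call needed an adjusted p below 0.05 and a fold of at least 1.5. Normalised counts are CPM after TMM scaling, and shifts use log2(normalised count + 0.5). The test was checked on simulated counts with 2-fold changes and the same spread between libraries for all genes. It recovered 163 of 198 changed genes, with 10 false calls. Smaller changes such as those of the enzymes, and a library that stands apart, were not simulated.

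The members and lists were chosen with earlier results of these data known. By the naming rule, values in every library are given for members whose groups did not overlap or that had an unadjusted p below 0.05 with all libraries or without any 1 library, and promoters are shown for members with a sterol or LXR element match. Library values of other members were added after their values were seen. The other sterol genes are given as counts here and not named, and 1 further marker list is not reported here. Alternatives were size factors of DESeq2, total counts, DESeq2 1.42.0, limma-trend (limma 3.58.1, prior count 2), other filters, a replicate block and leaving out each library. DESeq2 and limma-trend without DTA-1 replicate 1 were chosen after seeing the data. Replicate numbers were not taken as pairs. Promoters came from RefSeq GRCm38.p6. Levels per kilobase used the longest protein-coding transcript of GENCODE mouse release 21 basic.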

Additional observations from a re-analysis of the deposited data

How the results depend on the processing

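Of 434 member values recomputed, 406 kept their direction and their side of the threshold, 25 reversed and 3 passed the threshold, the last being Hmgcs1 without DTA-1 replicate 1 in edgeR, DESeq2 and limma-trend. The cause was not tested. Over all genes, 0 were called by edgeR with all libraries, 20 by DESeq2, 2 with no filter except 1 count, 1 with the replicate block, 337 at an unadjusted p below 0.05 and 1.5-fold, 0 to 111 with each library left out (111 without DTA-1 replicate 1), and 168 and 122 in DESeq2 and limma-trend without DTA-1 replicate 1. Members called were 0, with 0 to 1 when each library was left out and 1 in both of those added fits. Members at an unadjusted p below 0.05 were 7, with 4 to 14 when each library was left out (14 without DTA-1 replicate 1, 4 without DTA-1 replicate 2) and 14 in both added fits. The replicate block changed no other call. Deviations of same-numbered samples from their group means had correlations of -0.0069, -0.0028 and 0.0152. With 3 libraries per group these values cannot tell whether the samples were paired, and the labels do not say.

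The median log2 fold change of the members ran from 0.0964 to 0.16 with each library left out and that of the synthesis enzymes from 0.14 to 0.30. That of the LXR and efflux members was -0.06, and ran from -0.28 (without DTA-1 replicate 3) to -0.0179, with -0.17 and -0.24 in DESeq2 and limma-trend without DTA-1 replicate 1. Direction reversed in genes near 0. With total counts the log2 fold change was -0.0150 for Mvk, -0.0199 for Tm7sf2, -0.00257 for Ebp and -0.0353 for Soat1, and Soat1 was -0.00157 with no filter except 1 count and -0.000205 with at least 10 counts in every library. With each library left out it ran from -0.0390 to 0.11 for Mvk, -0.18 to 0.14 for Tm7sf2, -0.0565 to 0.0952 for Ebp, -0.12 to 0.0626 for Scap, -0.0669 to 0.0743 for Soat1, -0.0464 to 0.00757 for Nr1h2, -0.28 to 0.13 for Abcg1 and -0.0844 to 0.49 for Mylip. In DESeq2 and limma-trend without DTA-1 replicate 1 it was -0.17 and -0.17 for Tm7sf2, 0.0697 and 0.0628 for Scap, -0.0423 and -0.0447 for Soat1, and -0.0784 and -0.0615 for Mylip. For Abca1 and Nr1h3, with at most 22 counts in a library, depth limits the comparison.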
